A study of Mus musculus with 2 samples.

Results

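The interferon-stimulated genes described here are 36 mouse genes that respond to interferon. They were chosen by name from the 27998 genes of the count matrices, and 35 of them have a row there; Mx2 was not analysed here. They were split into 28 type I-type genes and 7 GTPases of the Gbp and Irg families (Gbp2, Gbp3, Gbp5, Gbp7, Iigp1, Igtp and Irgm1). The data come from 2 single-cell RNA libraries of CD11c-selected cells of the tumour microenvironment (TME) in PyMT mice of the C57BL/6N strain; PyMT, the polyoma middle T antigen, is an oncogene used to model mammary carcinoma. Both libraries are labelled WT (wild type) and form 1 group of 2, with no treatment and no other genotype, so every comparison below is between cell classes within these libraries. The labels used here give neither the promoter of the transgene, nor the age of the mice, nor whether cells of several mice were pooled.

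Interferons are secreted proteins that cells make on sensing viral or displaced nucleic acid. Type I interferons signal through the receptor Ifnar1/Ifnar2 to a complex that holds Stat2 and Irf9 and binds the interferon-stimulated response element (ISRE), whereas interferon-gamma, made mainly by T and NK cells, signals through Ifngr1/Ifngr2 to genes that carry the gamma-activated sequence (GAS). The type I-type genes encode antiviral effectors and feedback proteins; the Gbp and Irg GTPases, known for attacking pathogen-containing vacuoles, respond strongly to interferon-gamma. In tumours both kinds of signal occur in macrophages and dendritic cells, and many of these genes answer to either interferon.

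The 35 genes lie on 13 chromosomes (GRCm38, the assembly of mm10), several as neighbours. Gbp5, Gbp7, Gbp3 and Gbp2 stand in this order on chromosome 3 between 142493978 and 142638008, Ifit2, Ifit3 and Ifit1 on chromosome 19 between 34550694 and 34650009, and Rsad2 and Cmpk2 side by side on chromosome 12. Several of these neighbours belong to 1 family and share sequence, and a short tag from the 3' end may not tell them apart, so values of single Ifit, Oas, Oasl, Gbp and Irg genes carry that uncertainty. RefSeq promoters (GRCm38.p6, 250 bases before to 50 after the start, 300 in all) were matched for 27 of the 35; none was matched for Iigp1, Usp18, Zbp1, Mx1, Dhx58, Rtp4, Oas2 and Parp14. An ISRE-type motif, GAAA, any 2 bases and GAAA again, or TTTC, any 2 bases and TTTC on the other strand, was found in 18 of these 27 genes (66.7%), against 3.99% of the 27025 genes with a promoter. It was found in 12 of 21 type I-type genes and in 6 of 6 GTPases. A GAS-type motif, TTCNNNGAA, which reads the same on the other strand, was found in 10 of 27 (37.0%), against 9.55% of all genes. Matches of the same or of both motifs can overlap and were counted each.

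The 8 stretches below, the 140 bases before the RefSeq start on the strand of the gene, are shown because they carry ISRE-type matches, marked in capitals, in genes whose levels are described later. The first 5 are type I-type genes and the last 3 GTPases.
Isg15, chr4:156200819-156200958, minus strand: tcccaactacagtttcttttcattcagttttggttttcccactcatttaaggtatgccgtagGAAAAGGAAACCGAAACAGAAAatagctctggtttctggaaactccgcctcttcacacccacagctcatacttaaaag
Ifit1, chr19:34640749-34640888, plus strand: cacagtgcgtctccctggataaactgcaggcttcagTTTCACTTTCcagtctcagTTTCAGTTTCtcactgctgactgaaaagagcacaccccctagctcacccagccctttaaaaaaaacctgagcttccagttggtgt
Oas1a, chr5:120907526-120907665, minus strand: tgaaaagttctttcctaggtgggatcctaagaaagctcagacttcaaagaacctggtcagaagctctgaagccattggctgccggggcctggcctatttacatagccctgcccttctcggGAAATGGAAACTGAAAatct
Rsad2, chr12:26456453-26456592, minus strand: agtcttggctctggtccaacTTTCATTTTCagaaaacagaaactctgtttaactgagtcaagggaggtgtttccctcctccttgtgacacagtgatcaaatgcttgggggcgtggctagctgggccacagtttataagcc
Bst2, chr8:71537473-71537612, minus strand: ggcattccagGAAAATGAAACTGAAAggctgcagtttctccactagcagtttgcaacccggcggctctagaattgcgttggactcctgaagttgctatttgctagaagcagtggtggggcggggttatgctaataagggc
Gbp3, chr3:142559904-142560043, plus strand: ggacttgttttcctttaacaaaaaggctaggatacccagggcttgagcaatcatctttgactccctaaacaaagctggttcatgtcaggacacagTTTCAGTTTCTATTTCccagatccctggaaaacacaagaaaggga
Gbp7, chr3:142530196-142530335, plus strand: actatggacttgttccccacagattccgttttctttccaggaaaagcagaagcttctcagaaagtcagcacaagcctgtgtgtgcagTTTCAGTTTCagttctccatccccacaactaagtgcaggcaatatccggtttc
Igtp, chr11:58199416-58199555, plus strand: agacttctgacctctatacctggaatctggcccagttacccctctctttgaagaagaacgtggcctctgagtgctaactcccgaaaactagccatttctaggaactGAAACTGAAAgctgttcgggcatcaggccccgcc
Isg15, Oas1a, Bst2 and Gbp3 carry runs in which one match begins inside another, whereas the 2 matches of Ifit1 stand apart and Rsad2, Gbp7 and Igtp have 1 each. These are matches of letters and were not tested for binding.

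The libraries held 17369071 and 13317214 UMIs (unique molecular identifiers, each counting 1 captured RNA molecule), and 1898 and 1214 cells were kept, with medians of 5649 and 7141.5 UMIs. Cells were named from fixed marker genes, none of them a member, and classes are called "like" for that reason. Both libraries gave 20 or more cells to each of 11 classes, which were used. Macrophage-like cells formed 4 subsets by marker score, named C1q-high (497 cells), Ccr2-positive (190), Spp1 (208) and resident (231). The other classes were monocyte-like cells (333), cDC2-like (285), cDC1-like (191) and mature DC-like (71) dendritic cells, and lymphocyte-like (66), epithelial-like (138) and fibroblast-like (47) cells. The labels name myeloid cells, so the last 3 classes went against the label, while macrophage and dendritic markers were present. Monocyte markers were present in part: in monocyte-like cells Retnla and Ear2 had means of 1.52e+04 and 1664 CPM, without TMM scaling. On that scale Chil3, Vcan, Ace, Treml4, Hp and Cd177 had at most 5.565 CPM there. F13a1 had 131.5 CPM, under the 802.6 CPM of resident macrophage-like cells. Single markers did not always follow the subset names. Ccr2 had 245.3 CPM in the Ccr2-positive subset, 250.1 CPM in resident macrophage-like and 312.9 CPM in monocyte-like cells. C1qa had 5965 CPM in C1q-high and 5500 CPM in resident macrophage-like cells. Resident macrophage-like cells led in Folr2 (891.4 CPM) and Pf4 (4118 CPM). Their Timd4 level, 4.512 CPM, lay under the 50.34 CPM of cDC1-like cells, and they held 1705 CPM of Retnla. The Ccr2-positive subset had 1 of its own markers, Tgfbi, among its 10 leading genes, which Cyp4f18 and Klra2 headed, and 124 of its 190 cells lay within 0.1 of a gate score from the cut. So did 222 of the 497 C1q-high cells, the reference of most comparisons below, 83 of the 208 Spp1 and 82 of the 231 resident cells. The libraries shared 2 cell barcodes. Levels are CPM, the counts of a gene scaled to 1e6 UMIs of the class sum, with TMM (trimmed mean of M-values) scaling; the 3' tags do not depend on transcript length. Since nothing says that the libraries came from separate mice, p-values measure the spread between these class sums. In such sums more RNA per cell cannot be told apart from more cells that respond. Shares of cells with a UMI are given for Ifitm3 and Isg15 further below.

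Ifitm3 and Bst2 dominated the type I-type genes: Ifitm3, which blocks virus entry from endosomes, gave 51.3% of their UMIs and Bst2 (tetherin), which holds budding virus at the cell surface, 14.7%. The summed level of the 28 type I-type genes was highest in resident macrophage-like cells, with 5996 and 4374 CPM in replicates 1 and 2, and lowest in lymphocyte-like cells, with 1040 and 1232 CPM. Spp1 macrophage-like (4799 and 4178 CPM) and fibroblast-like cells (4905 and 3869 CPM) stood next to the highest. Their values overlapped those of the resident class, which was higher within each library. Without Ifitm3 and Bst2 the other 26 genes summed to 1815 and 1215 CPM in resident macrophage-like cells, 1854 and 978 CPM in mature DC-like cells, 1450 and 1258 CPM in Spp1 macrophage-like cells and 1377 and 787 CPM in C1q-high macrophage-like cells. The values of these 4 overlapped across libraries. Within each library C1q-high macrophage-like cells were the lowest of the 4, whereas the order of the others changed between the libraries. These sums have no test. The lowest means of both libraries were those of lymphocyte-like cells, 593 and 783 CPM, of cDC2-like cells, 908 and 663 CPM, and of cDC1-like cells, 847 and 799 CPM.

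**Figure D1:**
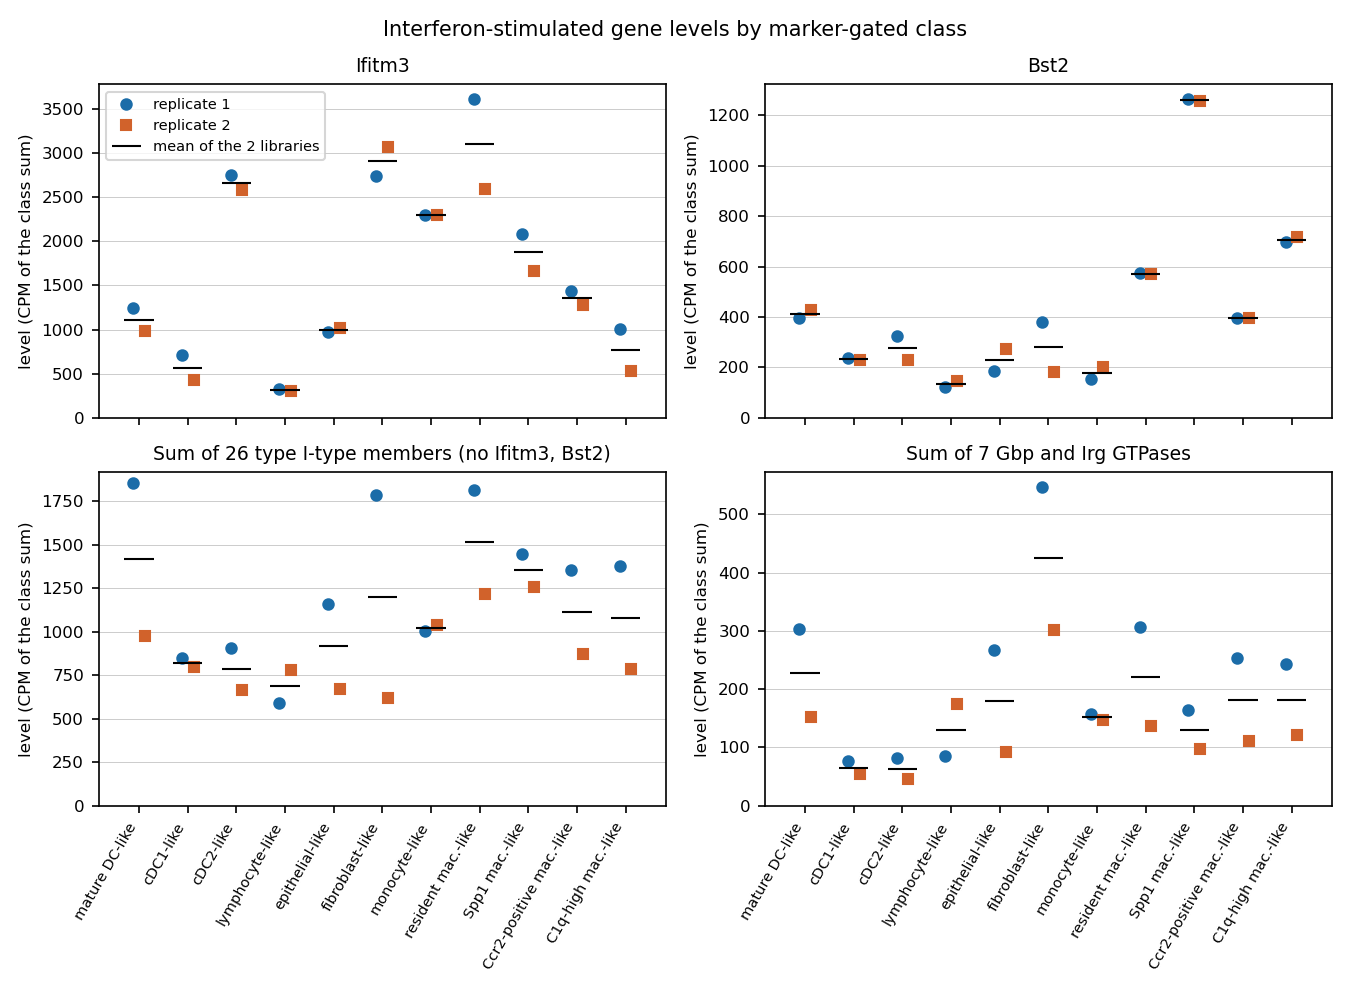
Level of Ifitm3, of Bst2, of the sum of the other 26 type I-type genes and of the sum of the 7 GTPases (y axis, CPM of the class sum, starting at 0) in 11 classes (x axis), with 1 point per library and a line at their mean. Bst2 was highest in Spp1 macrophage-like cells, with 1265 and 1255 CPM, and its libraries lay far apart in fibroblast-like cells, 379 and 183 CPM, while the sum of the 26 genes spread widely between libraries in fibroblast-like cells, 1786 and 621 CPM. Of the next members by level, Samhd1 was highest in mean in mature DC-like cells, with 329 and 258 CPM, and lowest in lymphocyte-like cells, with 23.1 and 60.2 CPM. Isg15 had 291 and 158 CPM in mature DC-like cells and 77.0 and 49.3 CPM in lymphocyte-like cells. Zbp1, a sensor of Z-form nucleic acid, had 192 and 78.1 CPM in Spp1 macrophage-like cells and 62.7 and 45.1 CPM in epithelial-like cells. Samhd1 and Isg15 were apart between these classes in both libraries, as was Zbp1, with a wide gap between the libraries of the Spp1 class for Zbp1.

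In mean of the libraries the GTPases ranked the classes in part as the other 26 type I-type genes did. Resident macrophage-like and mature DC-like cells were among the highest in both sums, and lymphocyte-like, cDC1-like and cDC2-like cells had the lowest means. Spp1 macrophage-like cells, high for the 26 genes, were low for the GTPases (164 and 97.2 CPM), overlapping lymphocyte-like cells (84.7 and 175 CPM). The sum of the GTPases was highest in fibroblast-like cells, with 547 and 301.5 CPM. It was lowest in cDC2-like cells, with 81.1 and 46.4 CPM, and cDC1-like cells, with 76.1 and 54.7 CPM, which overlapped. The sum was 307 and 136 CPM in resident macrophage-like cells, 303 and 152 CPM in mature DC-like cells and 243 and 121 CPM in C1q-high macrophage-like cells. These values overlapped across libraries. Within each library the C1q-high class was the lowest of them, and the order of the others changed between the libraries. Iigp1 made up much of the fibroblast value: it had 203 and 219 CPM there, above the highest library of any other class (68.8 CPM, epithelial-like), but 39 of the 61 UMIs of replicate 2 came from 1 cell. In mean of the libraries Gbp2 led in mature DC-like cells (202 and 87.8 CPM), Gbp3 in C1q-high macrophage-like cells (62.8 and 50.1 CPM) and Igtp in lymphocyte-like cells (38.5 and 71.2 CPM). The values of Gbp3 overlapped those of Ccr2-positive macrophage-like cells (59.1 and 44.3 CPM). Those of Igtp overlapped those of epithelial-like cells (39.8 and 15.5 CPM). The class with the highest mean thus differed between these genes, although not every lead was resolved. Irgm1, an Irg GTPase, ranged from 15.4 and 16.4 CPM in lymphocyte-like cells to 93.8 and 39.5 CPM in fibroblast-like cells and was called nowhere. Gbp7, also called nowhere, had 47.95 and 36.3 CPM in resident macrophage-like cells and no UMI in mature DC-like cells. Gbp5 stayed under the low-count filter, with at most 12.6 CPM in any class sum, in mature DC-like cells.

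The 34 members past the filter were tested in 9 comparisons, with 73 calls at an adjusted p under 0.05 over all 8812 genes tested. The share of all genes called in either direction ran from 1.78% in the Ccr2-positive to 46.4% in the epithelial-like comparison. The totals over comparisons are thus no result about the members by themselves. Of the 73, 72 had the same sign in both libraries, and the libraries' own folds lay over 1.5 times apart for 36. In all, 28 members were called at least once; Oas3, Stat2, Xaf1, Parp14, Gbp7 and Irgm1 never were. Of the 73 calls, 29 kept their call and direction under every alternative processing that tested the gene, and these are named with each comparison. With cells thinned only 58 of the 73 had a value, so some of the 29, on few UMIs, were not put to that alternative. Ifitm3 was called in all 9 comparisons and Bst2 in 6, of which 5 were lower.

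**Figure D2:**
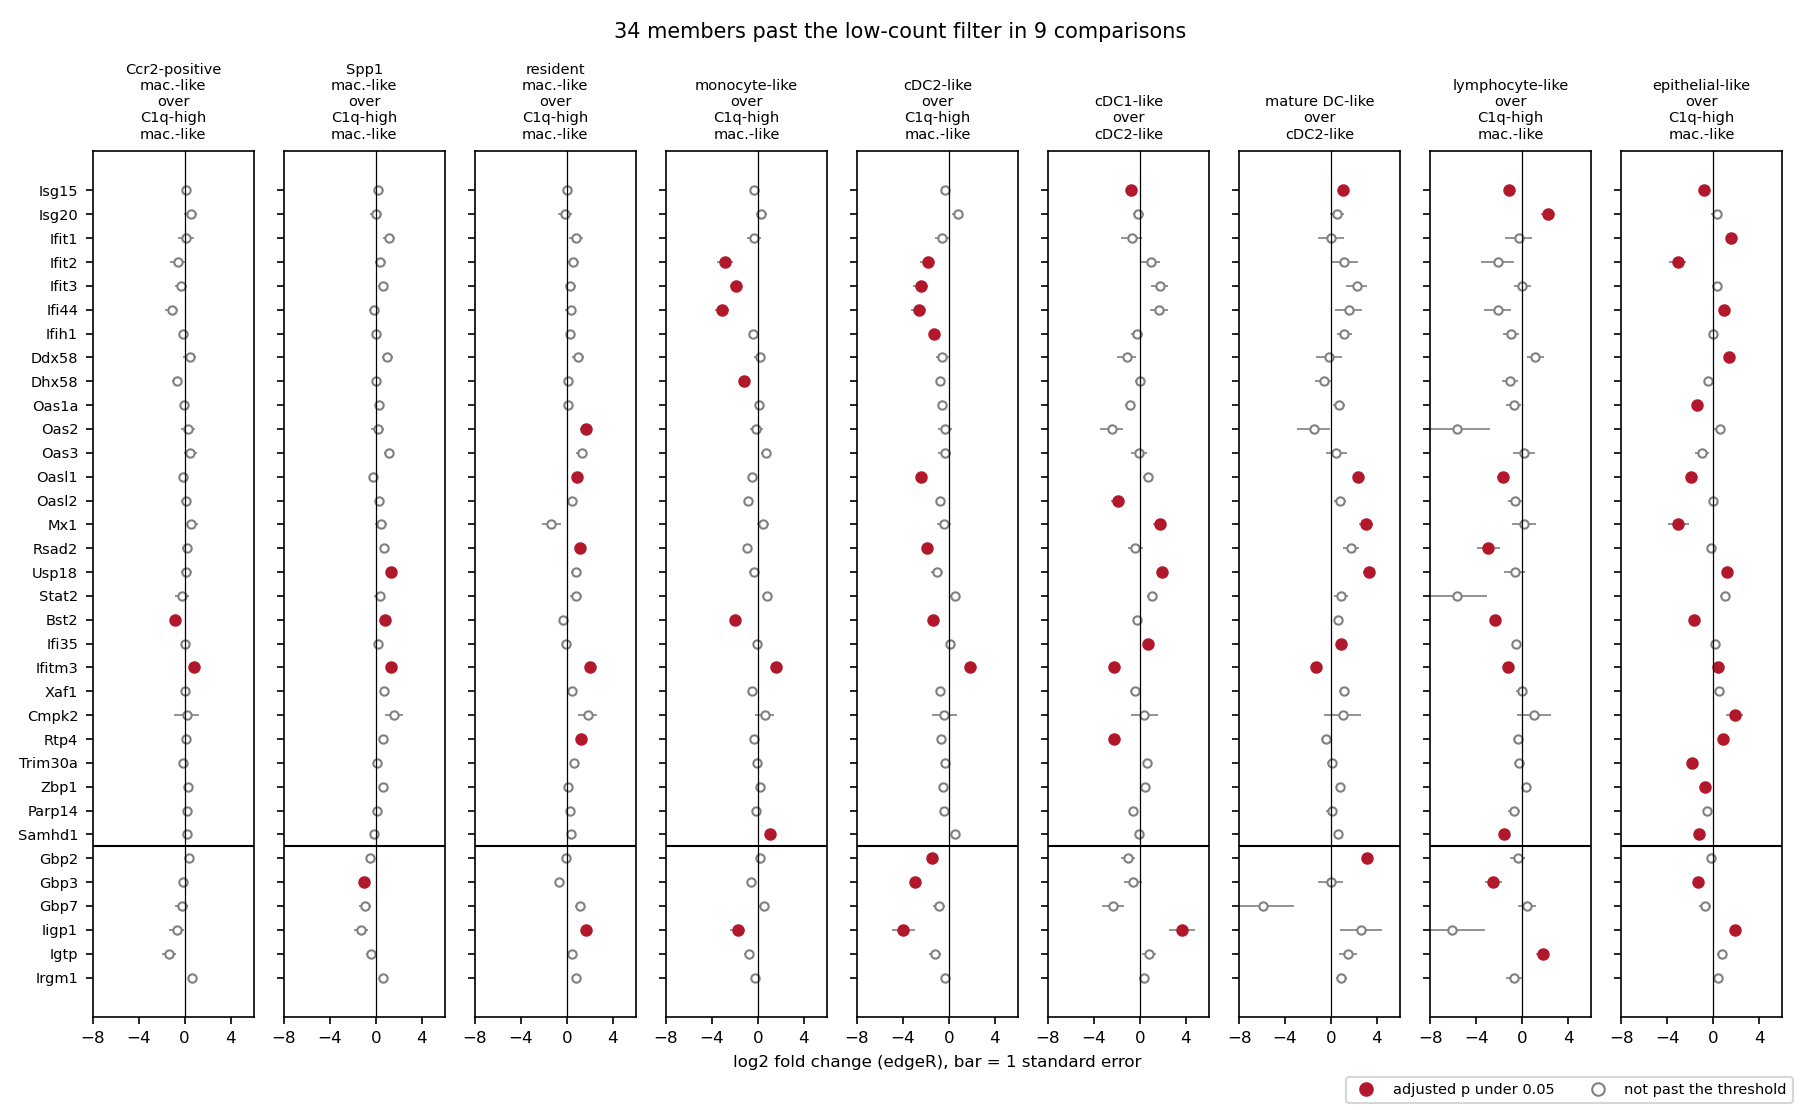
Log2 fold change (x axis, edgeR, bar of 1 standard error) of 34 members (rows, GTPases under the line) in 9 comparisons (panels), with red points past an adjusted p of 0.05. Red points for Ifitm3 appear in every panel, and those of the cDC2-like panel lie below 0 for 10 members and above 0 for Ifitm3. Points beyond -5 belong to members with no UMI in the class on top of the fold, so their position depends on the prior count.

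In resident macrophage-like cells 6 of 34 members were higher than in C1q-high macrophage-like cells (5.66% of all genes) and 0 were lower (5% of all genes; edgeR, with 11 members at an unadjusted p under 0.05 in either direction). The median log2 fold change was 0.48 for the 28 type I-type genes and 0.63 for the 6 GTPases, beside 0.003 for all genes. Ifitm3 had 3608 and 2588 CPM in resident and 1007 and 528 CPM in C1q-high macrophage-like cells, without overlap, a log2 fold change of 2.04 ± 0.18 (SE; adjusted p = 2.28e-12). Oas2, a synthetase of oligoadenylates that activate RNase L, had 32.0 and 31.7 CPM, against 14.1 and 3.86 CPM (log2 1.69 ± 0.50, adjusted p = 0.0198; library folds of 1.05 and 2.40). The resident values of Oas2 were alike, and the C1q-high ones were not. Rtp4, a chaperone-like transmembrane protein, had 175 and 122 CPM, against 81.2 and 48.9 CPM (log2 1.20 ± 0.25, adjusted p = 5.98e-04). Iigp1, an Irg GTPase, had 57.5 and 13.6 CPM, against 21.2 and 3.86 CPM (log2 1.67 ± 0.44, adjusted p = 0.00706), and replicate 2 rests on 3 UMIs in resident cells. Each was higher within both libraries; the values of Oas2 and Rtp4 did not overlap between the classes and those of Iigp1 did. Rsad2 (viperin; 168 and 45.3 CPM, against 84.0 and 25.7 CPM) and Oasl1, which restrains Irf7 (212 and 58.9 CPM, against 115 and 37.9 CPM), were also called, with overlapping values. Only Ifitm3 kept its call under every alternative; with the DESeq2 Wald test or without the library block 2 members passed, and with cells thinned to 1900 UMIs 1 of 23 did.

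Spp1 macrophage-like cells had 3 members higher than C1q-high macrophage-like cells (2.84% of all genes) and 1 lower (2.50% of all genes; 5.33% in either direction). Bst2 had 1265 and 1255 CPM in Spp1 and 696 and 717 CPM in C1q-high macrophage-like cells (log2 0.83 ± 0.19, adjusted p = 0.00260), with close libraries and no overlap. Ifitm3 had 2084 and 1665 CPM, against 1007 and 528 CPM (log2 1.315 ± 0.18, adjusted p = 4.46e-07; library folds of 1.05 and 1.65). Both are membrane proteins, and the classes were apart for both. Usp18, which strips Isg15 from proteins and damps the type I receptor, had 41.4 and 33.5 CPM, against 16.2 and 14.1 CPM (log2 1.32 ± 0.35, adjusted p = 0.0151), a call lost, with a log2 of -0.04, when every cell was thinned to 1900 UMIs. Gbp3 was lower, with 27.3 and 28.7 CPM, against 62.8 and 50.1 CPM (log2 -1.05 ± 0.33, adjusted p = 0.0492). Thus 1 GTPase fell while the median of the 28 type I-type genes was 0.37 and that of the 6 GTPases -0.72. Ifitm3 alone kept its call under every alternative.

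Ccr2-positive macrophage-like cells differed from C1q-high macrophage-like cells by 1 member higher (1.19% of all genes) and 1 lower (0.590% of all genes) of 34, with 1.78% of all genes called in either direction. Ifitm3 had 1436 and 1276 CPM in Ccr2-positive and 1007 and 528 CPM in C1q-high macrophage-like cells (log2 0.85 ± 0.18, adjusted p = 0.00236), with library folds of 0.51 and 1.27. Bst2 had 395 and 396 CPM, against 696 and 717 CPM (log2 -0.84 ± 0.20, adjusted p = 0.0107). Neither overlapped between the classes, and the remaining 32 members did not pass; of the type I-type genes other than Ifitm3 and Bst2, 0 had an unadjusted p under 0.05. No call was made without the library block. In simulated counts for this comparison the fit recovered 27.6% of genes changed by a log2 of 1 and 65.6% of those changed by 2, so smaller differences could be missed.

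Monocyte-like cells had 2 members higher (12.6% of all genes) and 6 lower (11.7% of all genes) than C1q-high macrophage-like cells, and 24.3% of all genes were called in either direction, close to the members' share. Ifitm3 had 2298 and 2292 CPM in monocyte-like and 1007 and 528 CPM in C1q-high macrophage-like cells (log2 1.62 ± 0.18, adjusted p = 2.63e-10; library folds of 1.19 and 2.11). Samhd1, which breaks down the nucleotides that viruses need, had 284 and 261 CPM, against 153 and 116 CPM (log2 1.02 ± 0.20, adjusted p = 5.30e-05). Bst2 had 153 and 202 CPM, against 696 and 717 CPM (log2 -1.999 ± 0.20, adjusted p = 2.99e-11). The classes stood apart in both libraries for these 3 genes. Ifi44 had 2.11 and 0.990 CPM, against 18.4 and 11.6 CPM, from 4 UMIs in 333 monocyte-like cells (log2 -3.12 ± 0.63, adjusted p = 1.26e-04). Ifit2 and Ifit3, which encode proteins of the family that binds viral RNA, fell by 2.86 ± 0.72 (adjusted p = 0.00179) and 1.90 ± 0.53 (adjusted p = 0.00532) on the log2 scale. For Ifit2 the library folds were -2.69 and -0.63 and for Ifit3 -2.56 and -0.66, so replicate 1 gave most of these falls. Ifit1 had 13.4 and 20.8 CPM, against 27.5 and 14.1 CPM, and was not called. Iigp1 and Dhx58, the sensor LGP2, were the other members called lower, also with library folds over 1.5 times apart. Ifitm3, Samhd1, Bst2, Ifi44 and Ifit2 kept their calls under every alternative that tested them.

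cDC2-like cells held more Ifitm3 and less of many other members than C1q-high macrophage-like cells: 10 of 34 members were lower (12.4% of all genes) and 1 higher (13% of all genes). The 10 were Iigp1, Gbp3, Gbp2, Ifi44, Ifit3, Ifit2, Oasl1, Rsad2, Bst2 and Ifih1 (the RNA sensor MDA5), thus 3 of 6 GTPases and 7 of 28 type I-type genes. The median log2 fold change was -0.56 for the type I-type genes and -1.33 for the GTPases, beside -0.01 for all genes. Gbp3 had 5.50 and 8.35 CPM in cDC2-like and 62.8 and 50.1 CPM in C1q-high macrophage-like cells (log2 -2.91 ± 0.43, adjusted p = 4.47e-07). Ifit3 had 12.4 and 2.78 CPM, against 54.4 and 25.1 CPM (log2 -2.47 ± 0.63, adjusted p = 0.00188). Ifi44 had 4.12 and 0.928 CPM, from 4 UMIs, against 18.4 and 11.6 CPM (log2 -2.60 ± 0.65, adjusted p = 0.00169). None of these overlapped between the classes. Iigp1 gave 1 UMI in 285 cDC2-like cells and 36 UMIs in C1q-high macrophage-like cells, a ratio of summed levels of 0.0419 with a 95% exact counting interval of 0.00103 to 0.249 (adjusted p = 0.00178). Ifitm3 went the other way, with 2746 and 2575 CPM, against 1007 and 528 CPM (log2 1.83 ± 0.18, adjusted p = 7.66e-12). Ifih1, Gbp3, Gbp2, Rsad2, Iigp1, Ifit2 and Ifitm3 had library folds over 1.5 times apart. For Ifit2 (-1.92 and -0.40), Rsad2 (-2.67 and -0.70) and Iigp1 (-3.16 and -0.86) replicate 1 gave most of the fall. Ifitm3, Bst2, Gbp3, Iigp1, Ifi44 and Oasl1 kept their calls under every alternative that tested them, and the DESeq2 Wald test called 6 members in all.

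Among dendritic cells, cDC1-like cells differed from cDC2-like cells in both directions, with 4 members higher (4.86% of all genes) and 4 lower (7.14% of all genes). Ifitm3 had 709 and 429 CPM in cDC1-like and 2746 and 2575 CPM in cDC2-like cells (log2 -2.25 ± 0.18, adjusted p = 1.08e-13). Rtp4 had 12.7 and 2.88 CPM, against 56.4 and 27.8 CPM (log2 -2.29 ± 0.43, adjusted p = 6.83e-05). Oasl2 (7.403 and 4.318 CPM, against 17.9 and 25.98 CPM; log2 -1.93 ± 0.58, adjusted p = 0.0189) and Isg15, the ubiquitin-like modifier (67.7 and 61.9 CPM, against 118 and 98.3 CPM; log2 -0.77 ± 0.25, adjusted p = 0.0316), were lower as well. None of these 4 overlapped between the classes, and Ifitm3 and Oasl2 had library folds over 1.5 times apart, as had Usp18, Mx1 and Iigp1 below. Higher in cDC1-like cells was Usp18, with 23.3 and 35.98 CPM, against 9.63 and 5.57 CPM (log2 1.96 ± 0.49, adjusted p = 0.00338; library folds of 1.08 and 2.23), although 13 of the 25 UMIs of replicate 2 came from 1 cell. Mx1, a gene of the dynamin-like GTPases, had 16.9 and 25.9 CPM, against 8.25 and 4.64 CPM (log2 1.72 ± 0.59, adjusted p = 0.0460). Ifi35 had 134 and 135 CPM, against 77.0 and 82.6 CPM (log2 0.74 ± 0.23, adjusted p = 0.0209). The classes were apart for all 3 genes. Iigp1 gave 17 UMIs in 8 cDC1-like cells and 1 UMI in cDC2-like cells, a ratio of 19.3 with a 95% exact counting interval of 3.03 to 809 (adjusted p = 0.0197), with all 5 UMIs of replicate 2 in 1 cell. Ifitm3 and Usp18 kept their calls under every alternative that tested them.

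Mature DC-like cells, which resemble migrating dendritic cells, had 6 of 34 members higher than cDC2-like cells (6.57% of all genes) and 1 lower (7.47% of all genes); with cells thinned 2 of 23 were higher and 1 lower. The median log2 fold change was 0.80 for the type I-type genes and 1.18 for the GTPases, beside -0.17 for all genes; with DESeq2 size factors the last was -0.05. Gbp2 had 202 and 87.8 CPM in mature DC-like and 20.6 and 11.1 CPM in cDC2-like cells (log2 3.14 ± 0.46, adjusted p = 8.91e-07). Usp18 had 101 and 35.1 CPM, against 9.63 and 5.57 CPM (log2 3.28 ± 0.53, adjusted p = 5.93e-06), from 24 and 6 UMIs, with 12 of the 24 in 1 cell. Mx1 had 59.0 and 46.8 CPM, against 8.25 and 4.64 CPM (log2 3.06 ± 0.64, adjusted p = 4.02e-04), from 14 and 8 UMIs. For these 3 genes each library of mature DC-like cells exceeded each of cDC2-like cells, on few molecules in 71 cells. Oasl1 had 105 and 35.1 CPM, against 22 and 6.49 CPM (log2 2.34 ± 0.46, adjusted p = 1.43e-04), with 12 of its 25 UMIs of replicate 1 in 1 cell. Isg15 (291 and 158 CPM, against 118 and 98.3 CPM) and Ifi35 (181 and 111 CPM, against 77.0 and 82.6 CPM) were also higher. For Isg15, 26 of the 69 UMIs of replicate 1 came from 1 mature DC-like cell. Ifitm3 was lower, with 1243 and 983.5 CPM, against 2746 and 2575 CPM (log2 -1.27 ± 0.18, adjusted p = 6.74e-07), so the most abundant member went against the others. Of its 168 UMIs in mature DC-like cells of replicate 2, 77 came from 1 cell. Gbp2, Usp18, Mx1 and Ifitm3 kept their calls under every alternative that tested them, and not all of them could be tested with cells thinned. Isg15, Ifi35 and Usp18 had library folds over 1.5 times apart, each larger in replicate 1. Among genes that are no members, Irf8 of the relay list was higher, with 1276 and 720 CPM in mature DC-like and 81.1 and 46.4 CPM in cDC2-like cells (log2 3.98, adjusted p = 1.59e-17).

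Lymphocyte-like cells, gated on T and NK cell markers, were lower than C1q-high macrophage-like cells in 7 of 34 members (12.6% of all genes) and higher in 2 (7.93% of all genes). The median of all genes was -0.22 in this comparison, -0.08 with DESeq2 size factors; that of the type I-type genes was -0.66, or -0.55 with Oas2 and Stat2, which had no UMI there, at the bound of 3 UMIs. Isg20, an exoribonuclease, had 46.2 and 60.2 CPM in lymphocyte-like and 18.4 and 5.14 CPM in C1q-high macrophage-like cells (log2 2.28 ± 0.60, adjusted p = 0.00326). Igtp had 38.5 and 71.2 CPM, against 15.5 and 18.0 CPM (log2 1.79 ± 0.54, adjusted p = 0.0118). Both rest on few molecules, 6 and 11 UMIs for Isg20 and 5 and 13 for Igtp, and neither overlapped. Bst2 had 123 and 148 CPM, against 696 and 717 CPM (log2 -2.36 ± 0.27, adjusted p = 8.04e-10). Rsad2 gave 2 UMIs, against 159 (ratio 0.141, interval 0.0169 to 0.517; adjusted p = 0.0370), and Gbp3 3 UMIs, against 167 (ratio 0.201, interval 0.0411 to 0.598; adjusted p = 0.0112). Oasl1, Samhd1, Ifitm3 and Isg15 were the other members called lower, Oasl1 by 1.63 ± 0.53 (adjusted p = 0.0205), its library folds -1.27 and -2.32. Samhd1, Gbp3, Oasl1, Isg20, Ifitm3, Igtp and Rsad2 had library folds over 1.5 times apart. Of the 42 UMIs of Ifitm3 in replicate 1, 39 came from 1 cell. Bst2, Ifitm3 and Isg20 kept their calls under every alternative that tested them.

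Epithelial-like cells differed from C1q-high macrophage-like cells in 18 of 34 members, 8 higher (24.8% of all genes) and 10 lower (21.7% of all genes), while 46.4% of all genes were called in either direction, so the members' share was close to that of all genes. The mitochondrial share of UMIs was 5.16% and 6.18% in epithelial-like and 2.31% and 2.78% in C1q-high macrophage-like cells; its part in the differences was not tested. Iigp1 had 68.8 and 20.2 CPM in epithelial-like and 21.2 and 3.86 CPM in C1q-high macrophage-like cells (log2 1.89 ± 0.39, adjusted p = 6.15e-05), higher within each library but with class values that overlapped. Ifit1 had 102.5 and 18.7 CPM, against 27.5 and 14.1 CPM (log2 1.60 ± 0.50, adjusted p = 0.00669), with library folds of 1.80 and 0.34. Cmpk2, a mitochondrial nucleotide kinase next to Rsad2, had 15.5 and 6.22 CPM, against 2.82 and 3.21 CPM (log2 1.89 ± 0.74, adjusted p = 0.0310). The rise was smaller in replicate 2 for both, with library folds of 1.73 and 0.60 for Cmpk2, and the values of Ifit1 overlapped. Ddx58, the RNA sensor RIG-I, had 19.6 and 24.9 CPM, against 7.77 and 8.999 CPM (log2 1.34 ± 0.43, adjusted p = 0.00782), and Usp18, Ifi44 and Rtp4 were also higher. Ifitm3 was called higher (log2 0.42 ± 0.18, adjusted p = 0.0463) with 977.5 and 1021 CPM, against 1007 and 528 CPM; its library folds were -0.04 and 0.95, so the direction rests on replicate 2. Ifit2 had 2.70 and 0 CPM, against 28.2 and 4.50 CPM (log2 -3.09 ± 0.76, adjusted p = 6.66e-04), from 4 UMIs. Mx1 gave 2 UMIs, against 25 (ratio 0.150, interval 0.0172 to 0.601; adjusted p = 0.00469). Trim30a (27.0 and 7.77 CPM, against 84.7 and 52.7 CPM; log2 -1.82 ± 0.29, adjusted p = 7.95e-07) and Oasl1 (23.6 and 17.1 CPM, against 115 and 37.9 CPM; log2 -1.94 ± 0.31, adjusted p = 6.23e-07) were lower without overlap. Trim30a and Oasl1 had library folds over 1.5 times apart, as had Ifit2. Oas1a, an oligoadenylate synthetase, was lower too, with 10.1 and 10.9 CPM, against 24.0 and 29.6 CPM (log2 -1.37 ± 0.38, adjusted p = 0.00224). Bst2, Samhd1, Gbp3, Isg15 and Zbp1 completed the lower members. Members of the Ifit family on chromosome 19 thus went in opposite directions, Ifit1 higher and Ifit2 lower, with Ifit3 (74.2 and 15.5 CPM, against 54.4 and 25.1 CPM) not past the threshold. Iigp1, Ddx58, Ifit2, Oasl1, Trim30a, Oas1a and Bst2 kept their calls under every alternative that tested them, and not all of them could be tested with cells thinned.

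**Figure D3:**
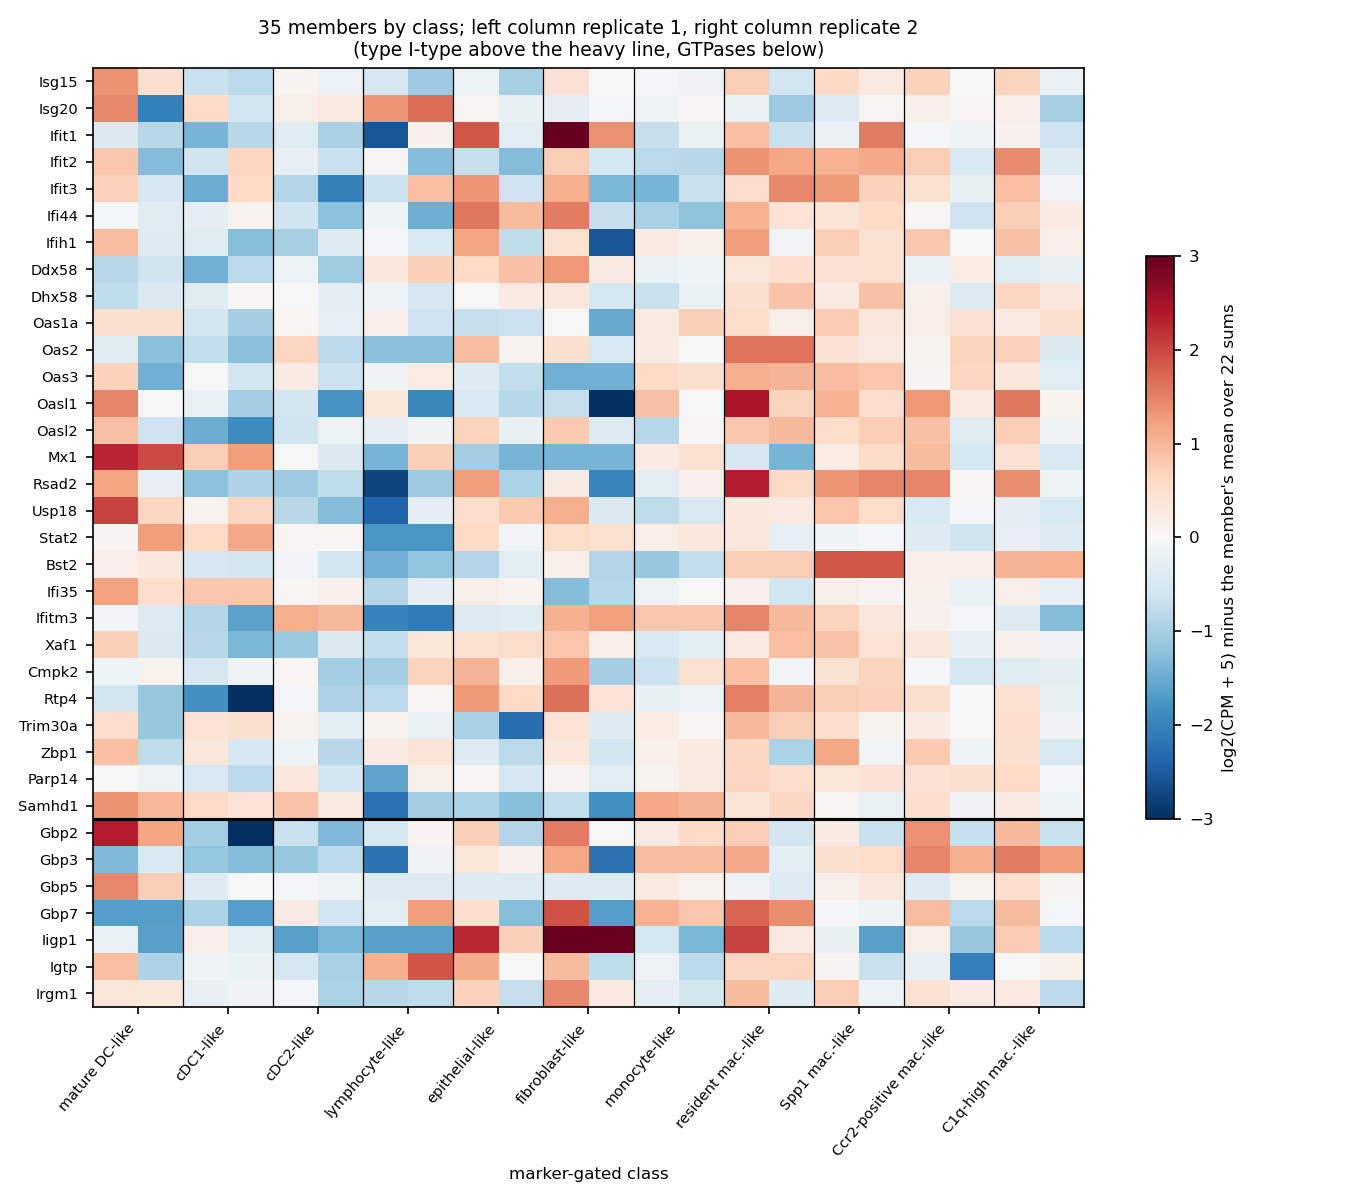
Levels of the 35 members (rows) in 11 classes (x axis, with replicate 1 in the left and replicate 2 in the right column of each), coloured by log2(CPM + 5) minus the mean of that member over the 22 sums, with the scale ending at 3 in each direction. Bst2 is high in both columns of Spp1 macrophage-like cells, Oasl1 and Rsad2 are highest in replicate 1 of resident macrophage-like cells (212 and 168 CPM), and Ifit1 and Iigp1 stand out in fibroblast-like cells.

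Fibroblast-like cells were not compared by a test. Ifit1 had 594 and 71.8 CPM there, from 152 UMIs in 15 of 23 cells and 20 UMIs in 4 of 24 cells, 16 of the 20 in 1 cell. Ifitm3 had 2740 and 3065 CPM, in the range of resident macrophage-like cells.

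Single cells held few molecules of each member, so cells were thinned to 1900 UMIs and the 26 type I-type genes other than Ifitm3 and Bst2 were summed. In C1q-high macrophage-like cells the mean was 2.63 and 1.44 such UMIs per cell (replicates 1 and 2), with none in 20.4% and 44.5% of cells and at most 21 in 1 cell. The variance exceeded the mean by 3.73 and 4.44 times in these cells, and the tenth of cells with most UMIs held 38.4% and 48.9% of them. The UMIs were thus spread unevenly over cells of 1 class. To ask whether genes were raised in the same cells, the 26 genes were dealt alternately into 13 and 13 (each in the 11 classes), and the second 13 were counted in cells grouped by the first. Cells with 5 or more UMIs of the first 13 had a mean of 3.57 ± 2.59 (SD over 75 cells) and 4.14 ± 3.33 UMIs (28 cells) of the second 13, against 0.747 ± 1.01 (621 cells) and 0.456 ± 0.740 (537 cells) in cells with 0. The GTPases were higher in the same cells, with 1.40 and 0.786 UMIs against 0.246 and 0.114 UMIs per cell, and so was Irf7, the transcription factor of the second wave of interferon, with 1.37 and 1.07 against 0.246 and 0.130 UMIs. These values pool the cells of the 11 classes, so classes of different levels are mixed in them. Within C1q-high macrophage-like cells alone, those with 3 or more UMIs of the first 13 had 2.51 and 3 UMIs of the second 13 (49 and 14 cells), against 0.695 and 0.409 (105 and 137 cells). For the second 13 the same order held in each of the 21 class and library pairs that had such cells. For the GTPases it held in these pairs except lymphocyte-like cells of replicate 1 (0 against 0.294 UMIs, 2 and 17 cells). Irf7 was not counted within single classes. Cells of 1 library share the capture and these values have no test.

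**Figure D4:**
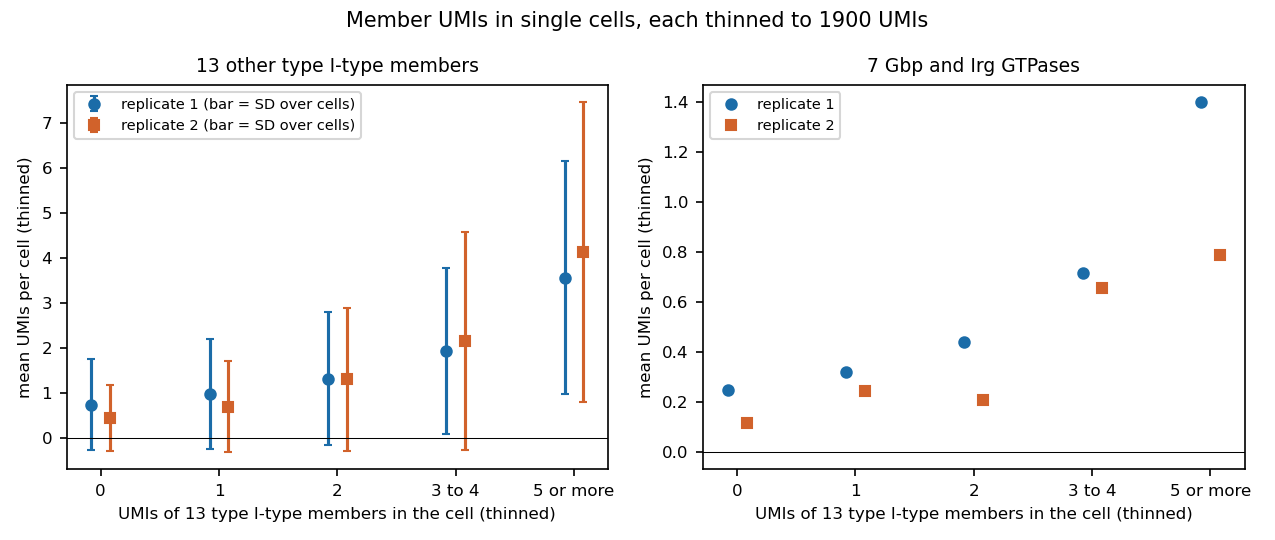
Mean UMIs per cell (y axis) of 13 type I-type members with the SD over cells (left) and of the 7 GTPases (right) in cells grouped by their UMIs of 13 other type I-type members (x axis), for both libraries, with each cell thinned to 1900 UMIs. The means of the 13 members increase to the right in both libraries, with 3.57 and 4.14 UMIs in the group of 5 or more and 0.747 and 0.456 UMIs in the group of 0, and SDs that overlap between neighbouring groups. The GTPase means increase at each step in replicate 1, but in replicate 2 the group of 2 (0.205) lies under the group of 1 (0.241).

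Shares of cells with a UMI showed how common a gene was. In thinned cells Ifitm3 was seen in 96.4% (exact 95% interval 92.6 to 98.5) and 97.4% (86.5 to 99.9) of resident macrophage-like cells, against 59.1% (53.1 to 65.0) and 37.6% (31.2 to 44.4) of C1q-high macrophage-like cells; without thinning the shares were 100% and 100%, against 76.0% and 62.4%. In lymphocyte-like cells, where free RNA would give a background, it was 3.57% (0.0904 to 18.4) and 18.4% (7.74 to 34.3). Isg15 was seen in 22.9% (17.2 to 29.5) and 5.13% (0.627 to 17.3) of resident and 21.9% (17.2 to 27.2) and 12.8% (8.71 to 18.0) of C1q-high macrophage-like cells, and in 14.3% and 10.5% of lymphocyte-like cells. The intervals of Isg15 overlapped between all 3 classes within each library. They cover counting error only. Barcodes of at most 50 UMIs, which hold free RNA, had 1610 and 1270 CPM of Ifitm3 and 460 and 370.5 CPM of Bst2, and free RNA was estimated at 0.736% to 1.73% of the UMIs of a class.

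The members differed between the libraries themselves. The mean level over the 11 classes was higher in replicate 1 for 32 of the 34 members tested, with a median ratio of 1.39, against 48.6% of all genes and a median ratio of 0.993. Isg15 and Oasl1 were higher in replicate 1 in 11 of 11 classes, with means of 148 and 95.8 CPM and of 73.9 and 27.7 CPM. Gbp2 (69.0 and 30.0 CPM) and Ifih1 (39.4 and 19.1 CPM) were higher in 9 and 10 classes, whereas Bst2 (430 and 421 CPM) was higher in 5. Outside the members, Cxcl9, a chemokine induced by interferon-gamma, was higher in replicate 1 in 11 of 11 classes (129 and 16.8 CPM), and Irf7 in 10 (224 and 114 CPM). Both libraries carry the same label, so this is a difference between samples of 1 group; no test was possible with 1 library on each side. The fits held it constant as a block.

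The interferons themselves were scarce. Over all kept cells Ifnb1 gave 97 and 54 UMIs, the 14 genes of the Ifna group (Ifnab included) together 5 UMIs, with 12 of them at 0, and Ifng 34 and 52 UMIs. Ifng was concentrated in lymphocyte-like cells, with 139 and 230 CPM, against at most 3.51 CPM in any other class sum. Of its 18 and 42 UMIs there, 10 and 21 came from 1 cell in each library. Ifnb1 reached 20.3 and 4.53 CPM in resident and 16.9 and 5.14 CPM in C1q-high macrophage-like cells, with the libraries apart and the classes overlapping.

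The other genes of the pathway were called in both directions. Of 5 receptor genes tested against C1q-high macrophage-like cells, epithelial-like cells had 5 lower, monocyte-like 4, cDC2-like 3 and lymphocyte-like cells 3, and the 3 other macrophage subsets had 0 (edgeR). Of all genes, 21.7%, 11.7%, 12.4% and 12.6% were called lower in these 4 comparisons. Ifngr1 was called higher in cDC2-like (246 and 273 CPM, against 126 and 201 CPM; log2 0.69, adjusted p = 0.0103) and lymphocyte-like cells (547 and 755.5 CPM, against 126 and 201 CPM; log2 2.00, adjusted p = 7.08e-10). Ifngr2 fell by 3.603 on the log2 scale in lymphocyte-like cells (15.4 and 11.0 CPM, against 165 and 149 CPM; adjusted p = 3.45e-08) and Ifngr1 by 3.52 in mature DC-like cells against cDC2-like cells (21.1 and 23.4 CPM, against 246 and 273 CPM; adjusted p = 1.91e-09). Of 12 relay genes and interferon regulatory factors, monocyte-like cells had 4 higher and 4 lower, and epithelial-like cells 1 higher and 4 lower. Of all genes, 24.3% and 46.4% were called in either direction in these comparisons. Irf8 was higher in cDC1-like cells than in cDC2-like cells (805 and 938 CPM, against 81.1 and 46.4 CPM; log2 3.85, adjusted p = 3.35e-17), and Irf7 likewise (253 and 109 CPM, against 78.4 and 55.7 CPM; log2 1.37, adjusted p = 2.35e-04). Of 12 class I presentation genes, 11 were higher and 0 lower in mature DC-like cells against cDC2-like cells, with Psme2, a proteasome activator subunit, at a log2 of 2.38 (adjusted p = 1.67e-14), and 6 were higher and 1 lower in cDC1-like cells against cDC2-like cells. Of 12 interferon-gamma-type targets, 9 were lower and 1 higher in epithelial-like, 4 lower in monocyte-like, 4 in cDC2-like and 3 in lymphocyte-like cells, each against C1q-high macrophage-like cells, and 2 higher in mature DC-like cells against cDC2-like cells. The shares of all genes called in either direction were 46.4%, 24.3%, 25.4%, 20.5% and 14.0% in these 5 comparisons. Fcgr1 and Fcgr4, Fc receptor genes that also mark macrophages, were among those lower in epithelial-like, monocyte-like and cDC2-like cells. Cxcl9 was called lower in resident than in C1q-high macrophage-like cells (42.6 and 9.07 CPM, against 250 and 7.71 CPM; adjusted p = 0.0118), with library log2 folds of -2.48 and 0.18, so replicate 1 alone gave this direction. Cxcl10, a chemokine that answers to both interferons, had 361 and 247.5 CPM in C1q-high macrophage-like cells and 508 and 115 CPM in fibroblast-like cells.

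Of 31 other type I-type targets, 8 were higher and 2 lower in resident, 4 and 0 in Spp1 and 5 and 0 in Ccr2-positive macrophage-like cells, and 4 and 8 in both monocyte-like and cDC2-like cells, each against C1q-high macrophage-like cells. In this order, 10.7%, 5.33%, 1.78%, 24.3% and 25.4% of all genes were called in either direction. Ly6a led the resident class (log2 2.73, adjusted p = 3.49e-10) and Ly6c2, which also marks monocytes, the Spp1 (log2 4.43, adjusted p = 3.74e-12) and Ccr2-positive classes (log2 3.75, adjusted p = 2.70e-08). Ifitm1, a neighbour in function of Ifitm3, was higher in cDC2-like cells (log2 7.31, adjusted p = 3.12e-17). Of 12 sensors and adaptors 2 were higher in resident macrophage-like cells, with Ifi203 at a log2 of 1.70 (adjusted p = 3.46e-07), and of 5 feedback inhibitors Socs3 was lower in Spp1 macrophage-like cells (log2 -1.02, adjusted p = 3.29e-04). Of all genes, 5.66% were called higher in the resident and 2.50% lower in the Spp1 comparison. Genes of the immediate early and heat shock response, which tissue dissociation can raise, moved as well: of 16 tested, 5 were higher and 1 lower in resident, 0 and 9 in Spp1, 1 and 8 in monocyte-like, 0 and 9 in cDC2-like, 0 and 8 in lymphocyte-like and 4 and 6 in epithelial-like cells, each against C1q-high macrophage-like cells. In the same order, 10.7%, 5.33%, 24.3%, 25.4%, 20.5% and 46.4% of all genes were called in either direction. The part of these 16 genes in the members' differences was not tested.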

How the data were processed

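Single-cell RNA was measured in 2 libraries labelled as replicates of 1 group. The files deposited by the authors hold unnormalised UMI counts of every gene in every barcode, made with Cell Ranger 2.2.0 on mm10, per the submitters' processing notes. The members, gene lists and classes were chosen with earlier results of these data known.

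Cells were barcodes above one 10th of the 99th percentile of the top 3000 (2112 and 1905 UMIs), with at least 200 genes and at most 10% mitochondrial UMIs; the top Scrublet scores (scanpy 1.11.5), 0.8% per 1000 cells, were removed as doublets (32 and 14 cells). Each cell took the class whose fixed markers scored highest, with a score of at least 0.35, a margin of 0.1 and 3 markers detected. This scoring rule was set after the files were seen and revised once, because the resident and Spp1 classes had too few cells in replicate 2, before member levels were read. The margin of the stricter gate was lowered to 0.2 at that stage, also because classes had too few cells in replicate 2. In all, 343 macrophage-like cells between subsets and 475 cells of no class were left out of the fits. Gate markers (138) were not tested.

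Counts were summed per class and library (22 sums) and fitted with edgeR 4.0.16 in R 4.3.3 (quasi-likelihood test, TMM, 10 residual degrees of freedom), with the library as a block because classes of a library share 1 capture. Benjamini-Hochberg adjustment ran over 8812 genes in each comparison; an adjusted p under 0.05 was a call. Each library's own log2 fold used a prior count of 2. The fit was tested on simulated data. DESeq2 1.42.0 served as an alternative. Values are given for up to 4 members called higher and 4 lower with the largest fold in each comparison that went the same way in both libraries, for the most abundant members, for Isg15, Ifit1, Ifit3, Irf7, Cxcl9, Cxcl10 and Ifng, and for up to 2 called genes of each other list; further values, such as those of calls whose libraries differ in sign, were added after the results were seen. 1 gene of the rule is not reported here. The upper limit that a count of 0 allows is 0.158% and 0.247% of the cells kept in replicates 1 and 2, for counting error only.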

Additional observations from a re-analysis of the deposited data

How the results depend on the processing

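Of the 73 calls of members, 71 kept call and direction with DESeq2 size factors, 72 with no filter on low counts, 69 with doublets kept, 69 with free RNA subtracted, 70 with barcodes of at least 1000 UMIs, 58 with the stricter gate, 42 without the replicate block and 45 with the DESeq2 Wald test; with cells thinned 35 of the 58 with a value did. Without the block the members called were 0 in Ccr2-positive, 1 in Spp1 and 2 in resident macrophage-like cells, 3 in cDC1-like and 5 in lymphocyte-like cells, against 2, 4, 6, 8 and 9 with it. The DESeq2 Wald test called 1, 1 and 2 in the same macrophage subsets, 6 in cDC2-like (11 in edgeR), 4 in cDC1-like and 5 in lymphocyte-like cells. With cells thinned, when 23 members could be tested, the counts were 2 in Spp1 and 1 in resident macrophage-like cells, 3 in cDC1-like, 3 in mature DC-like (7 unthinned) and 7 in epithelial-like cells (18 unthinned). Calls over all genes fell as well. Without the block 31 genes were higher and 8 lower in Ccr2-positive macrophage-like cells, against 105 and 52 with it. In Spp1 macrophage-like cells these were 140 and 71, against 250 and 220. With cells thinned, 693 were higher and 825 lower of 4083 in epithelial-like cells, against 2184 and 1909 of 8812. Barcodes of at least 1000 UMIs and the stricter gate each gave 1 in Ccr2-positive macrophage-like cells. Usp18 in Spp1 against C1q-high macrophage-like cells had a log2 of -0.04 with cells thinned. Ifitm3 in epithelial-like against C1q-high macrophage-like cells ranged from -0.043 without replicate 2 to 0.947 without replicate 1. Leaving out a library left no residual degrees of freedom, so those values have no test. The causes were not tested beyond the fewer UMIs and genes of the thinned cells. Small classes, above all mature DC-like, lymphocyte-like and fibroblast-like cells, and members with under 10 UMIs in a sum are limited by depth.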

Other observations

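Classes too small for a fit held other levels, given as CPM of all UMIs of the class without a test. Plasmacytoid DC-like cells (8 and 3 cells in replicates 1 and 2), the cell type known for making type I interferon, had 1479 and 2999 CPM of Bst2, which also marks that cell type in mice, from 93 and 66 UMIs. Their Ifitm3 level was 1320 and 1182 CPM, and the other 26 type I-type genes summed to 1336 and 1136 CPM. The GTPases gave 18 and 0 UMIs there. Neutrophil-like cells (15 cells, replicate 2) had 1662 CPM of Ifitm3 from 62 UMIs, 134 CPM of Bst2 from 5 UMIs and 0 UMIs of the GTPases. Endothelial-like cells (8 and 3 cells) had 5234 and 3914 CPM of Ifitm3 from 302 and 55 UMIs. Their other 26 type I-type genes summed to 2218 and 498 CPM, from 128 and 7 UMIs, and their GTPases to 1178 and 71.2 CPM, from 68 and 1 UMIs. The values of replicate 1 lie above those of the classes fitted, on another scaling, and those of replicate 2 rest on 3 cells.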
